A study of Mus musculus with 6 samples.

Results

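Cholesterol and fatty acid synthesis genes were followed in mouse leukaemia cells that carry a floxed allele of Ptpn6, the gene of the tyrosine phosphatase SHP-1. The members are a list of 36 genes: regulators of the SREBP transcription factors, enzymes of the sterol and fatty acid pathways, and sterol transporters. A gene was read where the array held a probe set assigned to it alone, and where a gene had several of these, the brightest on average was taken. This gave 35 members of 19938 genes in all. Acat2, an acetoacetyl-CoA thiolase, was not analysed here.

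The cells were pre-B cells of strain 129P2/OlaHsd transformed with BCR-ABL1, the fusion kinase of Philadelphia chromosome-positive acute lymphoblastic leukaemia, and all of them had the genotype Ptpn6 +/fl. The 3 control samples were transduced with PMIP-ERT2, a vector without recombinase, and the other 3 with PMIP-CRE-ERT2, in which Cre is held inactive by an oestrogen receptor domain until tamoxifen binds it. Cells of both groups were puromycin resistant and had received 4OH-Tamoxifen at 0.5 micromolar for 2 days. An unfloxed Ptpn6 allele is part of the genotype of every sample, so by the labels neither group is a full knockout. Every difference given below is the mean of the CRE-ERT2 arrays minus the mean of the ERT2 arrays on the log2 scale.

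In animal cells the SREBP factors are made as membrane proteins of the endoplasmic reticulum. When sterols are scarce, the escort protein SCAP carries them to the Golgi, where they are cut free to switch on genes of sterol and fatty acid synthesis, and INSIG proteins hold SCAP back when sterols are plentiful. The nuclear receptor LXR, which oxysterols activate, switches on cholesterol exporters of the ABC family, and also Srebf1 and Scd1. Dividing lymphoid cells need the products of both pathways to build new membrane.

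The array medians lay between 7.90 and 7.98, and precision is limited by there being 3 arrays a group. Log2 expression of Ptpn6 was 11.25, 11.39 and 11.39 in the ERT2 arrays and 11.36, 11.25 and 11.20 in the CRE-ERT2 arrays, which overlapped and did not pass (-0.07, limma adjusted p = 0.76). Whether its probe set lies in the floxed part is not known here, so this does not check the labels. Of 11 defining pre-B cell genes 10 were measured, with log2 values from 9.81 to 14.46. The sum of these 10 log2 values was 126.05 to 126.82 in the ERT2 arrays and 127.34 to 127.91 in the CRE-ERT2 arrays, and Dntt, the terminal transferase of early lymphocytes, rose by 0.48 (limma adjusted p = 0.00369). The part of this shift in the differences below was not tested. Probe sets of 29 T cell, myeloid, erythroid, stromal and adipocyte markers gave log2 values from 5.34 to 9.21, and none of the 29 passed. Their log2 values summed to 206.98 to 212.75 in the ERT2 and 207.50 to 211.70 in the CRE-ERT2 arrays. Tfrc, the transferrin receptor of erythroid and other dividing cells, lay at 12.68 to 13.03. Its CRE-ERT2 values all lay under its ERT2 values, as for 15.5% of all genes. The difference was -0.17 and did not pass (limma adjusted p = 0.308). Fewer cells of a type and less RNA per cell cannot be told apart in bulk RNA.

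Promoter sequence is shown for 4 members. Mvk was taken because it passed the test below. Insig1, Hmgcs1 and Fasn are examples of windows with letters that SREBP factors or their partner NF-Y are known to bind. Of the 36 members, 28 had at least 1 window in the RefSeq promoter table (GRCm38.p6), which runs from 250 bases before to 50 bases after a transcript start. Scd1 and Abcg1, which also passed the test below, had none. Capitals mark the sterol regulatory element TCACNCCAC, the NF-Y box CCAAT and the E-box CACGTG on either strand, so that CCAAT on the opposite strand reads as ATTGG. The Mvk window lies at chr5:114444019-114444318 on the plus strand and the Insig1 window at chr5:28071162-28071461 on the plus strand. The Hmgcs1 window lies at chr13:119690101-119690400 on the plus strand and the Fasn window at chr11:120824498-120824797 on the minus strand.
Mvk: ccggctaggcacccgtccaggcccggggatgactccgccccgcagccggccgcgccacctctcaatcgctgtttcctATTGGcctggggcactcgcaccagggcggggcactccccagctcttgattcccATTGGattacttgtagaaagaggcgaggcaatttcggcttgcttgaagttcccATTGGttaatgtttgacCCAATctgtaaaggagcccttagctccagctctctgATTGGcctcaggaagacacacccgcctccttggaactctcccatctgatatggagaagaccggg
Insig1: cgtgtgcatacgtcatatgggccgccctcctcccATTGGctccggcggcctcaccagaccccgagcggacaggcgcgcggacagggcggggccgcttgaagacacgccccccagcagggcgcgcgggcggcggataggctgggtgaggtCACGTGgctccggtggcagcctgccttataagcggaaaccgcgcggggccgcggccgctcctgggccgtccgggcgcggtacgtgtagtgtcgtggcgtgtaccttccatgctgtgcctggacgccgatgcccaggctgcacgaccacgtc
Hmgcs1: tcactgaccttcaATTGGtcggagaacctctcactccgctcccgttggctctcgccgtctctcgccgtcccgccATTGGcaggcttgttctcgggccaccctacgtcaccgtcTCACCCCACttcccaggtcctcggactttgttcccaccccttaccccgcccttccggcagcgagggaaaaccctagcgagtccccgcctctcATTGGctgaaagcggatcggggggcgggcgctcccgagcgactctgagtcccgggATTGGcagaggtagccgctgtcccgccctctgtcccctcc
Fasn: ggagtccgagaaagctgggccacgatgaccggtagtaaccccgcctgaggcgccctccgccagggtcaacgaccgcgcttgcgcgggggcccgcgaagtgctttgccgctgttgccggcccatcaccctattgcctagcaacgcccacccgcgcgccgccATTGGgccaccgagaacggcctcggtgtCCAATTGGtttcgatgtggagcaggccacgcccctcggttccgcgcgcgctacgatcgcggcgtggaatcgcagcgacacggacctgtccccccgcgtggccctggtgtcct

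The Mvk window held 5 NF-Y boxes, 1 on the printed strand and 4 on the other. It shares 259 of its 300 bases with the window of Mmab, a gene of cobalamin metabolism that starts on the opposite strand. Among the 28 members with a window, Hmgcs1 was the only one with the letters of the sterol regulatory element, beside 4 NF-Y boxes. Fasn had 3 NF-Y boxes, of which 2 overlap, and Insig1 had 1 NF-Y box and 1 E-box. Such boxes are not particular to the genes shown, as 22 of the 28 members (78.6%) had an NF-Y box, against 41.1% of all genes. Over the 37 windows of members, 23 (62.2%) held an NF-Y box, against 37.4% of all 32851 windows in the table. An E-box was in 8 (21.6%) against 7.15%, and the sterol regulatory element in 1 (2.70%) against 1.24%. These are letter matches in windows of 300 bases and describe the sequences only.

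In the expression data, 3 of the 35 members fell in the CRE-ERT2 arrays and 0 rose by the test across all genes (limma with Benjamini-Hochberg adjustment, adjusted p under 0.05). Scd1, the stearoyl-CoA desaturase that makes oleate, fell 1.51-fold. Abcg1, a cholesterol exporter under LXR control, fell 1.33-fold, and Mvk, the mevalonate kinase, fell 1.23-fold. Of all 19938 genes, 4.58% passed, 2.28% lower and 2.30% higher, so the 3 members (8.57%) are to be read against 2.28%. The other 32 did not pass.

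The differences of the members, those that passed included, lay mostly below 0. Of the 35 members, 27 had a difference below 0 and 8 above, and the median was -0.11, against 61.1% of all genes below 0 and a median of -0.03. An unadjusted p under 0.05 with a lower value was found for 15 members (42.9%), against 11.1% of all genes, and with a higher value for 0 members, against 5.29%. For the same 15 members the 3 CRE-ERT2 arrays all lay under the 3 ERT2 arrays, which was so for 15.5% of all genes. The opposite order was seen for 1 member, Nsdhl, and for 6.92% of all genes. Without the dimmest genes, 44.1% of members and 16.2% of all genes had a lower value at an unadjusted p under 0.05. After a further quantile normalization these shares were 31.4% and 8.68%. Many members are known to share a regulator, so they are not independent counts.

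**Figure D1:**
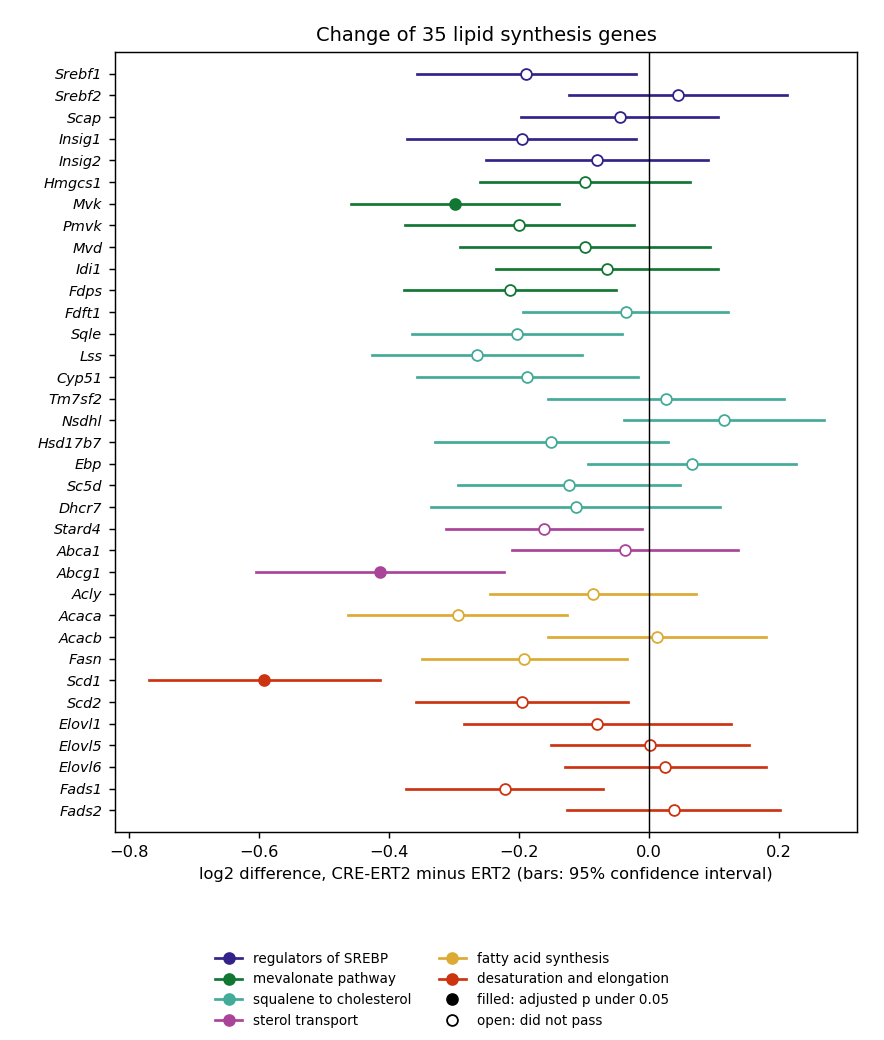
Difference in log2 expression (CRE-ERT2 minus ERT2, n = 3 arrays each) of the 35 measured members, grouped by role, with the 95% confidence interval from limma as a bar. The members that passed at an adjusted p under 0.05 are Scd1 (-0.59), Abcg1 (-0.41) and Mvk (-0.30), and 27 of the 35 points lie to the left of 0.

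The array CRE-ERT2 replicate 3 carried the lowest value of 22 of the 35 members. The median deviation of the members from their own 6-array means was 0.02, 0.05 and 0.07 in ERT2 replicates 1, 2 and 3. It was 0.00, -0.07 and -0.13 in CRE-ERT2 replicates 1, 2 and 3, whereas over all genes it stayed between -0.03 and 0.04. The groups did not overlap in this median, but CRE-ERT2 replicate 1 stood nearer to the ERT2 arrays than to CRE-ERT2 replicate 3. From ERT2 replicate 1 to CRE-ERT2 replicate 1 the median of all genes fell further (0.0411 to -0.0269) than that of the members. Relative to all genes the groups therefore overlapped. For the 16 sterol enzymes they overlapped without this, with -0.0035 in ERT2 replicate 1 and 0.0225 in CRE-ERT2 replicate 1. Without CRE-ERT2 replicate 3, 1 member passed (Scd1, with 2.27% of all genes) and 6 (17.1%) had a lower value at an unadjusted p under 0.05, against 7.66% of all genes. Without CRE-ERT2 replicate 2 the latter count was 9 (25.7%, against 7.58%).

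**Figure D2:**
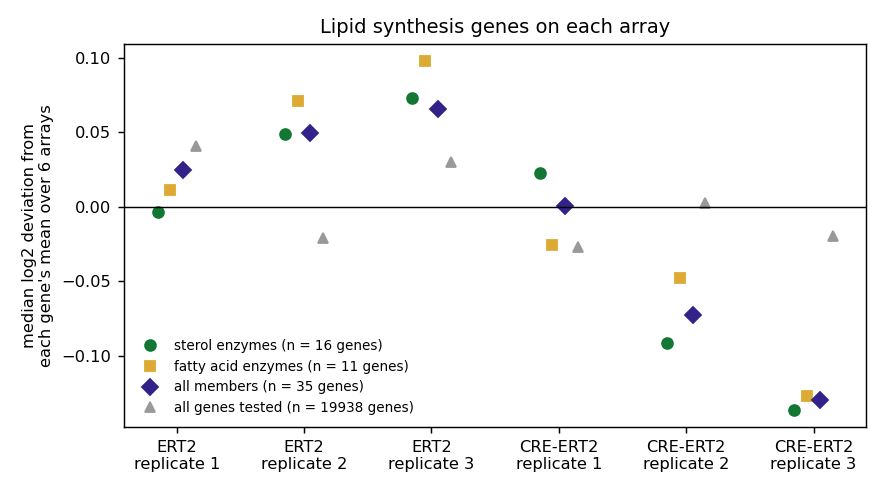
Median deviation of each gene's log2 value from its own mean over the 6 arrays, by array, for gene groups and for all 19938 genes. The median of the 35 members is -0.13 in CRE-ERT2 replicate 3, while CRE-ERT2 replicate 1 (0.00) lies close to ERT2 replicate 1 (0.02).

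Among the 5 regulators, 0 passed, 4 differences (80%, against 61.1% of all genes) lay below 0 and the median was -0.08. Srebf1, whose protein mainly serves fatty acid genes, had values of 10.76, 10.76 and 10.80 in the ERT2 arrays and 10.68, 10.61 and 10.46 in the CRE-ERT2 arrays. All 3 CRE-ERT2 values were lower, by -0.19 in the mean (95% confidence interval -0.36 to -0.02, limma adjusted p = 0.241). Insig1, itself a sterol-responsive gene, read 11.47, 11.39 and 11.34 against 11.31, 11.23 and 11.07. Its groups did not overlap either, at -0.20 (-0.37 to -0.02, limma adjusted p = 0.244). Srebf2, whose protein mainly serves sterol genes, differed by 0.05 (-0.12 to 0.21), the escort gene Scap by -0.04 (-0.20 to 0.11) and Insig2 by -0.08 (-0.25 to 0.09), and the groups overlapped for all 3.

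The mevalonate pathway builds the isoprenoid units of sterols from acetyl-CoA. All 6 enzymes measured had a difference below 0, against 61.1% of all genes, with a median of -0.15. Of these 6, 1 fell (16.7%, against 2.28% of all genes). Mvk, which phosphorylates mevalonate, had values of 10.20, 10.33 and 10.29 in the ERT2 arrays and 10.04, 9.98 and 9.91 in the CRE-ERT2 arrays. Its highest CRE-ERT2 value lay under its lowest ERT2 value, and the difference was -0.30 ± 0.07 (SE, n = 3 each, limma adjusted p = 0.0382). This call was lost whichever array was left out (limma adjusted p from 0.0528 to 0.190), after a further quantile normalization (0.0638) and with all probe sets tested (0.156).

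Fdps, which joins isoprenoid units to farnesyl diphosphate, read 12.18, 12.03 and 12.14 against 11.97, 11.91 and 11.83. Pmvk, the kinase acting after Mvk, read 8.78, 8.70 and 8.90 against 8.68, 8.61 and 8.49. Neither gene overlapped between the groups, and neither passed, at -0.21 for Fdps (limma adjusted p = 0.152) and -0.20 for Pmvk (0.233). The synthase gene Hmgcs1, the one with the sterol regulatory element printed above, differed by -0.10 (-0.26 to 0.06). The decarboxylase gene Mvd (-0.10) and the isomerase gene Idi1 (-0.06) also overlapped, and a second Idi1 probe set gave -0.04.

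From squalene to cholesterol, 7 of 10 enzymes (70%, against 61.1% of all genes) had a difference below 0, with a median of -0.12, and 0 passed. Lss, the lanosterol synthase that closes the sterol rings, was the nearest to passing. Its values were 11.15, 11.10 and 11.08 in the ERT2 arrays and 10.94, 10.82 and 10.77 in the CRE-ERT2 arrays. The groups did not overlap, and the difference was -0.27 (-0.43 to -0.10, limma adjusted p = 0.0671).

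Sqle, the squalene epoxidase and a rate-limiting step, read 12.02, 11.93 and 12.05 against 11.88, 11.76 and 11.75 (-0.20, limma adjusted p = 0.172). Cyp51, the lanosterol demethylase, read 11.44, 11.36 and 11.22 against 11.20, 11.12 and 11.14 (-0.19, limma adjusted p = 0.248). In both the groups did not overlap, though for Cyp51 only a narrow margin lay between ERT2 replicate 3 and CRE-ERT2 replicate 1. Nsdhl, a sterol dehydrogenase gene, stood on the other side, with 11.62 in each ERT2 array against 11.69, 11.70 and 11.81 (0.12, -0.04 to 0.27). The squalene synthase gene Fdft1 (-0.04, and -0.15 on a second probe set) and the later enzymes Hsd17b7 (-0.15), Sc5d (-0.12), Dhcr7 (-0.11), Tm7sf2 (0.03) and Ebp (0.07) all overlapped between the groups. Dhcr7 was -0.22 without ERT2 replicate 1 and -0.03 without ERT2 replicate 2.

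Of the 3 sterol transport genes, 1 fell (33.3%, against 2.28% of all genes). Abcg1, which moves cholesterol out to lipoproteins, had values of 11.22, 11.36 and 11.37 in the ERT2 arrays and 11.05, 10.91 and 10.75 in the CRE-ERT2 arrays. All CRE-ERT2 values were lower, with CRE-ERT2 replicate 3 lowest, and the difference was -0.41 ± 0.09 (SE, n = 3 each, limma adjusted p = 0.0169). Without CRE-ERT2 replicate 3 it was -0.34 and did not pass (limma adjusted p = 0.111), nor did it pass with all probe sets tested (0.150). Stard4, a carrier of free sterol in the cytosol, read 10.88, 10.90 and 10.83 against 10.75, 10.66 and 10.72 (-0.16, limma adjusted p = 0.268), without overlap. Abca1, another ABC exporter under LXR control, overlapped, with 7.00, 6.94 and 7.06 against 6.85, 7.08 and 6.97 (-0.04, -0.21 to 0.14).

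Fatty acid synthesis starts from citrate, which Acly splits to give acetyl-CoA for the carboxylases Acaca and Acacb and the synthase Fasn. Of these 4 genes 0 passed, and the median was -0.14. Acaca, the cytosolic carboxylase of the committed step, read 11.56, 11.40 and 11.36 in the ERT2 arrays and 11.20, 11.14 and 11.09 in the CRE-ERT2 arrays. These groups were separate, and the difference of -0.29 (-0.46 to -0.13) missed the threshold narrowly (limma adjusted p = 0.0521). A second Acaca probe set gave -0.34, and with the mean of both the gene passed (limma adjusted p = 0.0481). It also passed with centred arrays (0.0474), without the dimmest genes (0.0271), with array weights (0.0401), with a trended, robust variance (0.0108) and without ERT2 replicate 3 (0.0421). Acaca did not pass after a further quantile normalization (0.082), with all probe sets tested (0.204) or with the replicate block (0.101). Nor did it pass when any other array was left out (limma adjusted p from 0.0697 to 0.226). Fasn read 12.85, 12.86 and 12.86 against 12.73, 12.69 and 12.57 (-0.19, limma adjusted p = 0.190), with the ERT2 arrays nearly equal and all CRE-ERT2 arrays under them. Acly (-0.09) and Acacb, the carboxylase at mitochondria (0.01), overlapped between the groups.

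Among the 7 genes of desaturation and elongation, 1 fell (14.3%, against 2.28% of all genes), and its difference was the largest of the 35 members. Scd1 had values of 12.99, 13.00 and 12.82 in the ERT2 arrays and 12.45, 12.25 and 12.34 in the CRE-ERT2 arrays. The gap between the groups was wider than the range of the arrays within either, and the difference was -0.59 ± 0.08 (SE, n = 3 each, limma adjusted p = 0.000861). It passed under each alternative run, with differences from -0.65 to -0.54. Scd2, another stearoyl-CoA desaturase, read 13.64, 13.80 and 13.76 against 13.61, 13.50 and 13.51 (-0.20, limma adjusted p = 0.200), with only a small gap between the groups.

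Fads1, the delta-5 desaturase of polyunsaturated fatty acids, read 12.71, 12.69 and 12.78 in the ERT2 arrays and 12.54, 12.49 and 12.48 in the CRE-ERT2 arrays. The groups were separate, at -0.22 (-0.37 to -0.07, limma adjusted p = 0.106). Fads2, the delta-6 desaturase of the same family, differed by 0.04 (-0.13 to 0.20). The elongase genes Elovl1 (-0.08, -0.28 to 0.13), Elovl5 (0.00, -0.15 to 0.16) and Elovl6 (0.03, -0.13 to 0.18) overlapped between the groups. Elovl1 was -0.19 without ERT2 replicate 1 and -0.02 without ERT2 replicate 2. With a trended, robust variance 10 members passed in all, adding Acaca, Fads1, Fasn, Fdps, Lss, Scd2 and Sqle to the 3 above, while 7.74% of all genes passed in place of 4.58%.

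**Figure D3:**
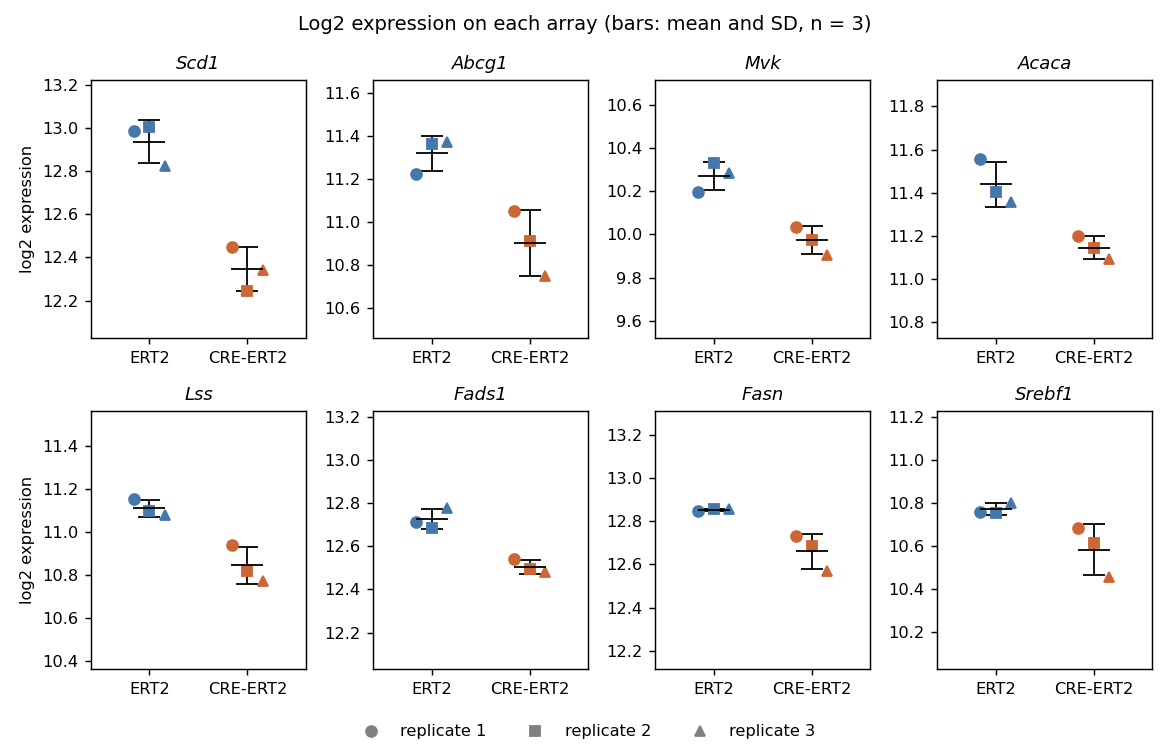
Log2 expression of 8 members on each of the 6 arrays, with the mean and SD of the 3 arrays of each group. The 8 were picked from the 15 of 35 members whose CRE-ERT2 arrays all lie under the ERT2 arrays (15.5% of all genes), with the widest gap for Scd1 (12.45 against 12.82 at the nearest).

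Related genes were also set against each other within each array, as the difference of their log2 values, for 8 pairs chosen after their values were seen. The change of Scd1 relative to Scd2 was -0.40, that of Abcg1 relative to Abca1 -0.38 and that of Acaca relative to Acacb -0.31. For Fads1 it was -0.26 relative to Fads2 and -0.86 relative to Fads3, described below. Srebf1 relative to Srebf2 gave -0.23, and Insig1 relative to Insig2 gave -0.12. In these 7 pairs the groups did not overlap, and the two-sided exact permutation p was 0.1 for each, the smallest that 3 arrays against 3 can give (0.114 adjusted over the 8 pairs). Mvk relative to Pmvk gave -0.10, with overlap (exact permutation p = 0.2). Log2 values of Abca1 (6.85 to 7.08) and Acacb (7.79 to 8.01) lay within the range of the 29 markers of other cell types (5.34 to 9.21). How far such values lie above background is unknown. The pairs with Abca1 and Acacb may therefore hold little beyond the changes of Abcg1 and Acaca. The choice of pairs may have favoured separation, and no share over other pairs of genes was computed. These values therefore describe the pairs and test nothing.

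Other genes of the same pathways were read from further lists. Of 12 other sterol genes and SREBP2 targets measured, 1 fell (8.33%, against 2.28% of all genes) and 0 rose (against 2.30%). That leaves 11 without a call, and the median difference was -0.15. At an unadjusted p under 0.05, 5 (41.7%) were lower and 0 higher, against 11.1% and 5.29% of all genes. For 5 (41.7%) all CRE-ERT2 arrays lay under the ERT2 arrays, against 15.5% of all genes. The one that fell was Mmab, whose promoter window overlaps that of Mvk. Its values were 10.65, 10.67 and 10.54 in the ERT2 arrays and 10.28, 10.15 and 10.15 in the CRE-ERT2 arrays, a difference of -0.43 ± 0.08 (SE, n = 3 each, limma adjusted p = 0.00495). The groups were separate, as they were for Mvk. The cytosolic acetyl-CoA synthetase gene Acss2 differed by -0.27 (limma adjusted p = 0.0825).

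Of 14 genes for sterol uptake, storage and export measured, 2 fell (14.3%, against 2.28% of all genes) and 0 rose (against 2.30%). The median difference of the 14 was -0.06. At an unadjusted p under 0.05, 2 (14.3%) were lower and 0 higher, against 11.1% and 5.29% of all genes. All CRE-ERT2 arrays lay under the ERT2 arrays for 2 (14.3%, against 15.5% of all genes). They lay above the ERT2 arrays for 3, Npc2, Lipa and Stard3, against 6.92% of all genes. Lrp8, a receptor for apolipoprotein E, read 10.84, 10.80 and 10.67 against 10.36, 10.30 and 10.28 (-0.46, limma adjusted p = 0.00318). Scarb1, the HDL receptor, read 11.12, 11.18 and 11.20 against 10.91, 10.79 and 10.54 (-0.42, limma adjusted p = 0.0200). Both receptors were lower in all CRE-ERT2 arrays. Scarb1 lost its call without CRE-ERT2 replicate 3 (limma adjusted p = 0.105), without ERT2 replicate 1 (0.0673) and with all probe sets tested (0.170). Of 8 LXR receptors and targets other than the members, 0 passed, with a median of -0.08. The smallest p among them belonged to the LXR alpha gene Nr1h3 (-0.16, limma adjusted p = 0.314) and to Mylip (-0.13, 0.506), which marks lipoprotein receptors for degradation.

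On the fatty acid side the further genes that passed were higher, although most differences in their lists lay below 0. Of 21 other fatty acid synthesis genes and SREBP1 targets, 2 rose (9.52%, against 2.30% of all genes) and 0 fell (against 2.28%). The other 19 had no call, 14 of the 21 differences (66.7%, against 61.1%) lay below 0, and the median was -0.07. At an unadjusted p under 0.05, 3 (14.3%) were lower and 2 higher, against 11.1% and 5.29% of all genes. All CRE-ERT2 arrays lay under the ERT2 arrays for 6 (28.6%, against 15.5%) and above them for 2 (against 6.92%). Fads3, a desaturase of the Fads1 and Fads2 family, read 8.22, 8.20 and 8.24 in the ERT2 arrays and 9.02, 8.83 and 8.74 in the CRE-ERT2 arrays. It rose 1.56-fold, by 0.64 (0.46 to 0.82, limma adjusted p = 0.000442), with a gap between the groups wider than the range of either. Lpin1, a phosphatidate phosphatase on the way to triglycerides, read 8.17, 8.08 and 8.12 against 8.72, 8.57 and 8.51 and rose by 0.48 (limma adjusted p = 0.00295).

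Of 15 genes of triglycerides and lipid droplets, 2 rose (13.3%, against 2.30% of all genes) and 0 fell (against 2.28%). The other 13 had no call, 10 of the 15 differences (66.7%, against 61.1% of all genes) lay below 0, and the median was -0.04. Lipe, the hormone-sensitive lipase, read 8.65, 8.62 and 8.76 against 9.16, 9.16 and 9.04 and rose by 0.44 (limma adjusted p = 0.00384). Plin2, a coat protein of lipid droplets, read 9.77, 9.76 and 9.83 against 10.29, 10.18 and 10.09 and rose by 0.40 (limma adjusted p = 0.00811). In Fads3, Lpin1, Lipe and Plin2 the array CRE-ERT2 replicate 3 was the lowest of its group, yet lay above every ERT2 array. With all probe sets tested, Lpin1 (limma adjusted p = 0.0538), Lipe (0.0550), Plin2 (0.0829) and Mmab (0.0625) did not pass.

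**Figure D4:**
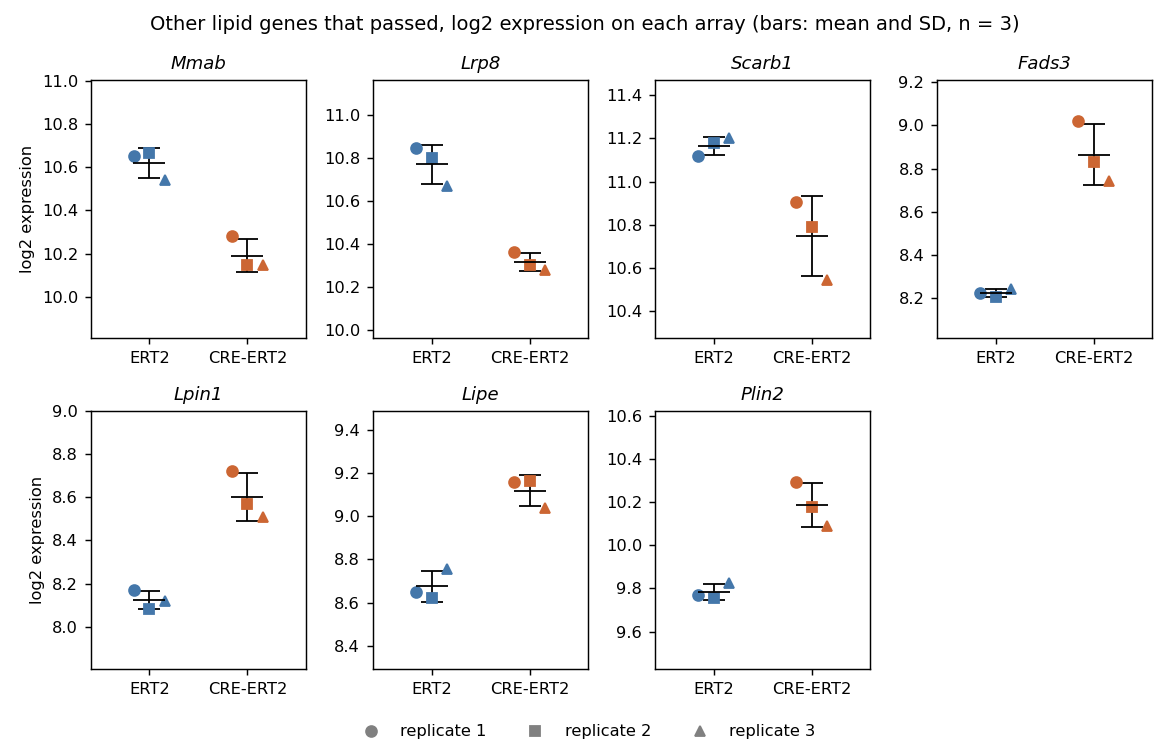
Log2 expression of 7 further lipid genes that passed, on each of the 6 arrays, with the mean and SD of the 3 arrays of each group. Mmab, Lrp8 and Scarb1 are lower in all CRE-ERT2 arrays, and Fads3, Lpin1, Lipe and Plin2 are higher, with Fads3 at 8.20 to 8.24 against 8.74 to 9.02.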

How the data were processed

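Biotin-labelled total RNA of 6 samples was read on Affymetrix arrays. Values were used as log2 expression per probe set, as deposited. The submitters' processing notes list RMA and Partek 6.5 but give neither a role, and the log2 scale was read from the range of the values. Platform annotation gave 1 gene to 21789 of 35556 probe sets, which named 19938 genes. Scanner output and detection calls were not used here.

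The groups were compared with limma 3.58.1 under R 4.3.3 (two-sided moderated test from eBayes after lmFit, group as the only term), fitted on all genes with Benjamini-Hochberg adjustment at 0.05, and tested on simulated data. The labels do not say that samples came from separate cultures, so the p-values rest on a spread among samples that could be technical only. Members and lists were chosen with earlier results of these data known. Array values are given for members that passed, had an unadjusted p under 0.05 or were among the 5 largest differences, and for Nsdhl and Abca1, chosen after their values were seen. Of each further list, up to 4 passing genes were named, and where fewer than 2 passed, those with the smallest p up to 2. Promoters are RefSeq windows (GRCm38.p6). Protein sequences were not used here. Alternatives were another normalization, centring, filters, probe set rules, variance models, the replicate block and leaving out each array.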

Additional observations from a re-analysis of the deposited data

How the results depend on the processing

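The count of members passing, 3 as reported, was 1 with all probe sets tested (1.27% of all genes passed), 5 of 34 without the dimmest genes (9.47% of 13299), 5 with array weights (5.18%) and 10 with a trended, robust variance (7.74%), against 4.58% as reported. It ranged from 1 to 3 when an array was left out, and every member that passed under these settings was lower. With the replicate block 2 members and 589 genes passed, against 914 genes, and Mvk did not (limma adjusted p = 0.111). Same-numbered arrays correlated at -0.114, -0.372 and -0.072 in their deviations from the group means, so the numbers were not taken as pairs. Differently numbered arrays correlated at -0.315 to 0.449. The highest were ERT2 replicate 2 with CRE-ERT2 replicate 1 (0.449) and ERT2 replicate 3 with CRE-ERT2 replicate 2 (0.396). Whether arrays were related across the groups in another order was not tested. With a trended, robust variance 1544 genes passed. The median difference of the members, -0.11, was -0.0683 after quantile normalization, against -0.0095 for all genes. When an array was left out it ranged from -0.17 (without CRE-ERT2 replicate 1) to -0.095 (without CRE-ERT2 replicate 3). Some members near 0 changed sign. Fdft1 was 0.0138 after quantile normalization, Elovl5 was -0.0034 with centred arrays and -0.0086 with array weights, and Tm7sf2 was -0.0034 with array weights. When an array was left out, Abca1 ranged from -0.0956 to 0.0230, Acacb from -0.0431 to 0.0673, Elovl5 from -0.0296 to 0.0187, Elovl6 from -0.0109 to 0.0557, Fads2 from -0.0084 to 0.0725, Fdft1 from -0.0781 to 0.0013 and Tm7sf2 from -0.0197 to 0.0996. Elovl1 and Dhcr7 kept their sign but ranged from -0.1942 to -0.0209 and from -0.2182 to -0.0253. The cause was not tested. How far dim genes lie above background is unknown.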

Other observations

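Fatty acid oxidation, the opposite of synthesis, had no call. Of 17 genes measured, 0 passed (limma), with 10 differences below 0 and 7 above and a median of -0.02, near that of all genes (-0.03). At an unadjusted p under 0.05, 3 (17.6%) were lower and 2 higher, against 11.1% and 5.29% of all genes. The dienoyl-CoA reductase gene Decr1 differed by -0.27 (limma adjusted p = 0.0842) and the medium-chain dehydrogenase gene Acadm by 0.20 (0.158).

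The isoprenoid branch uses products of the mevalonate pathway for protein prenylation, dolichol and coenzyme Q. Of 12 genes measured, 0 passed (limma), and 11 differences (91.7%) lay below 0, against 61.1% of all genes, with a median of -0.13. At an unadjusted p under 0.05, 4 (33.3%) were lower and 0 higher, against 11.1% and 5.29% of all genes. The coenzyme Q gene Coq2 (-0.18, limma adjusted p = 0.222) and Rabggtb, a prenyltransferase subunit gene (-0.19, 0.235), are named for their small p.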
